A study of Rattus norvegicus with 8 samples.

Results

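The miR-17 to miR-92a cluster is a group of miRNAs cut from hairpins that lie side by side in a single primary transcript. Its 6 main products, rno-miR-17-5p, rno-miR-18a-5p, rno-miR-19a-3p, rno-miR-20a-5p, rno-miR-19b-3p and rno-miR-92a-3p (named below without the rat prefix), were taken by their array names and make up 6 of the 719 miRNAs on the array. They were measured in C6 cells, an established rat glioma line, on Agilent single-colour rat miRNA arrays. The control cells were untreated. The other groups received an antipsychotic drug every day for 5 days, namely haloperidol at 2 µg/ml, risperidone at 4 µg/ml or clozapine at 25 µg/ml. Each group had 2 arrays, which the design text calls biological repeats, and all 8 arrays shared 1 slide. Every drug was compared with the same 2 control arrays, and the treatment group was also the column of the slide, so that column and drug cannot be told apart.

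The primary transcript of this cluster is known as a target of the Myc and E2F transcription factors and as a driver of proliferation and survival in many tumours, gliomas among them. Drosha cuts the hairpins out of the transcript and Dicer then frees the mature strands, after which each mature miRNA has a stability of its own. Products of 1 transcript can therefore share their transcription and still differ in abundance. The comparison asked whether the members moved alike across arrays and drugs.

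The mature sequences are shown because the members fall into families by their seed, the stretch that pairs with target messages, and because near-identical members are the ones an array could confuse. Bases 2 to 8, the seed, are in capitals. Sequences and positions are those of RefSeq on build GRCr8, where all 6 members matched.
miR-17-5p: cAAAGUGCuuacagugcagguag
miR-20a-5p: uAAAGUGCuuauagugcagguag
miR-18a-5p: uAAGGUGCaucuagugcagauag
miR-19a-3p: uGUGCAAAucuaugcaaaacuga
miR-19b-3p: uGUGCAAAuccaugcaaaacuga
miR-92a-3p: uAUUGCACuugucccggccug

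The pair miR-17-5p and miR-20a-5p shared the seed AAAGUGC and differed by C1U and C12U, counted from the 5′ end with the base of miR-17-5p first. The pair miR-19a-3p and miR-19b-3p shared the seed GUGCAAA and differed by U11C alone, with the base of miR-19a-3p first. The seed of miR-18a-5p was AAGGUGC and that of miR-92a-3p was AUUGCAC. The 6 hairpins (Mir17, Mir18a, Mir19a, Mir20a, Mir19b1 and Mir92a1, each annotated as a miRNA gene) lay within 785 bases, at chr15:98587848-98588632 on the plus strand. The members with a sequence from this locus alone were miR-18a-5p, miR-19a-3p and miR-20a-5p. The mature sequences of miR-17-5p, miR-19b-3p and miR-92a-3p each came from 2 loci, the second of them in a paralogous cluster on the X chromosome (Mir106a, Mir19b2 and Mir92a2), and the array cannot say which locus a molecule came from.

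All 6 members were detected on all 8 arrays, which held for 185 of the 719 miRNAs. Between 193 and 254 miRNAs were detected per array, and 243 were tested. The glial tumour markers miR-21-5p and miR-125b-5p were detected on every array, and all 4 epithelial markers were detected on none. Of the 3 neuronal markers, miR-124-3p was detected on no array and miR-9a-5p and miR-129-5p on all 8, as was the endothelial miR-126a-3p. Among leukocyte miRNAs, miR-150-5p was detected on 5 arrays, miR-223-3p on 4, miR-142-3p on 3 and miR-142-5p on none. Among erythrocyte and serum miRNAs, miR-451-5p was detected on 2 arrays, and miR-144-3p and miR-122-5p on none. The summed level of the oligodendrocyte miRNAs lay between -1.20 and -0.38 on the control arrays and between -0.13 and 0.66 on the drug arrays. That of the neuronal list lay between 0.25 and 0.28 on the control arrays and between 0.057 and 0.25 on the drug arrays. The part of these lists in the results was not tested. Levels are log2 signals after division by the array's 75th percentile, so that 0 is that percentile, and they are compared between arrays and not between miRNAs. Control replicate 1 stood apart from the other arrays. The mean squared deviation of the tested miRNAs from their own means was 0.417 on that array and between 0.0683 and 0.228 on the others. Next to it came risperidone replicate 2 (0.228) and clozapine replicate 2 (0.195), the arrays with the fewest miRNAs detected (193 and 203). As 1 of the 2 control arrays, it enters every comparison with control below, and values without it follow for the members, the other strands and the paralogues.

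The first pair of members, miR-17-5p and miR-20a-5p, belongs to the family known for acting on cell cycle inhibitors and on proapoptotic messages. The level of miR-17-5p was 0.93 and 1.55 on the control arrays, 1.22 and 1.30 on the haloperidol arrays, 1.22 and 1.28 on the risperidone arrays and 1.10 and 1.29 on the clozapine arrays. All 6 drug arrays of miR-17-5p fell between the 2 control arrays. The level of miR-20a-5p was 1.74 and 2.47 on the control arrays, 2.32 and 2.40 on the haloperidol arrays, 2.32 and 2.23 on the risperidone arrays and 2.11 and 2.48 on the clozapine arrays. The low value was again control replicate 1, and the other control array overlapped with the drug arrays. The difference from control (limma log2 fold change) of miR-17-5p was 0.017, 0.012 and -0.042 with haloperidol, risperidone and clozapine, each with a standard error of 0.23. That of miR-20a-5p was 0.25, 0.17 and 0.19, each with a standard error of 0.27. Neither miRNA had a difference beyond the spread between replicates.

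The level of miR-18a-5p, which differs from the miR-17 family within the seed, was -0.65 and 0.69 on the control arrays. The haloperidol arrays gave 0.62 and 0.81, those of risperidone 0.69 and 0.46, and those of clozapine 0.13 and 0.75. Control replicate 1 was the lowest array, and control replicate 2 lay among the drug arrays. The differences from control of 0.70, 0.55 and 0.42 had a standard error of 0.47.

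The miR-19 pair is known as the part of the cluster that most promotes cell survival in lymphoma models. The level of miR-19a-3p was -0.66 and 1.04 on the control arrays, 1.03 and 1.41 on the haloperidol arrays, 1.33 and 0.98 on the risperidone arrays and 0.69 and 1.51 on the clozapine arrays. The 2 control arrays alone differed by 1.70, or 3.25-fold, the widest gap among the members. The level of miR-19b-3p was 2.05 and 3.06 on the control arrays, 2.91 and 3.16 on the haloperidol arrays, 3.09 and 2.82 on the risperidone arrays and 2.82 and 3.29 on the clozapine arrays. The control arrays of miR-19b-3p differed 2.02-fold, and only control replicate 1 lay outside the range of the drug arrays. The difference of miR-19a-3p from control was 1.03 for haloperidol (95% interval -0.48 to 2.55), 0.97 for risperidone (-0.55 to 2.48) and 0.91 for clozapine (-0.60 to 2.43). That of miR-19b-3p was 0.48, 0.40 and 0.50, each with a standard error of 0.37. Although miR-19a-3p had the largest differences of the cluster, their intervals took in 0 with every drug. Without control replicate 1 they were 0.18, 0.12 and 0.061.

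The last member, miR-92a-3p, is known for limiting new vessel growth in endothelium and shares its seed with miR-25-3p. Its level was 1.29 and 0.97 on the control arrays, 0.65 and 0.79 on the haloperidol arrays, 0.70 and 0.84 on the risperidone arrays and 0.76 and 0.70 on the clozapine arrays. Here control replicate 1 was the highest of the 8 arrays, and both control arrays lay above all 6 drug arrays. It was the only member whose drug arrays did not overlap with the control arrays, and it did so with each drug. In the same direction, the arrays did not overlap for 32.1%, 32.9% and 33.7% of the 243 tested miRNAs with haloperidol, risperidone and clozapine, and for 19.8% with all 6 drug arrays below both controls, so that this separation was common on these arrays. The differences from control were -0.41, -0.36 and -0.40, each with a standard error of 0.16, or levels 1.33-fold, 1.28-fold and 1.32-fold lower. The unadjusted limma p of miR-92a-3p was 0.0452 for haloperidol, 0.0686 for risperidone and 0.0485 for clozapine, and the adjusted p was 0.581, 0.454 and 0.335. The difference did not pass the test, and without control replicate 1 it was -0.25, -0.20 and -0.24. It lay above 0 with risperidone (0.23) and clozapine (0.25) when arrays were scaled over all probes instead of the detected ones, a scaling that moved the median of all tested miRNAs from -0.15 to 0.35 and from -0.17 to 0.42. Relative to that median miR-92a-3p was lower under both scalings, at -0.21 and -0.12 with risperidone and at -0.23 and -0.18 with clozapine. A change of scaling moves all miRNAs of an array alike apart from the floor, so the second scaling is no separate check of this.

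**Figure D1:**
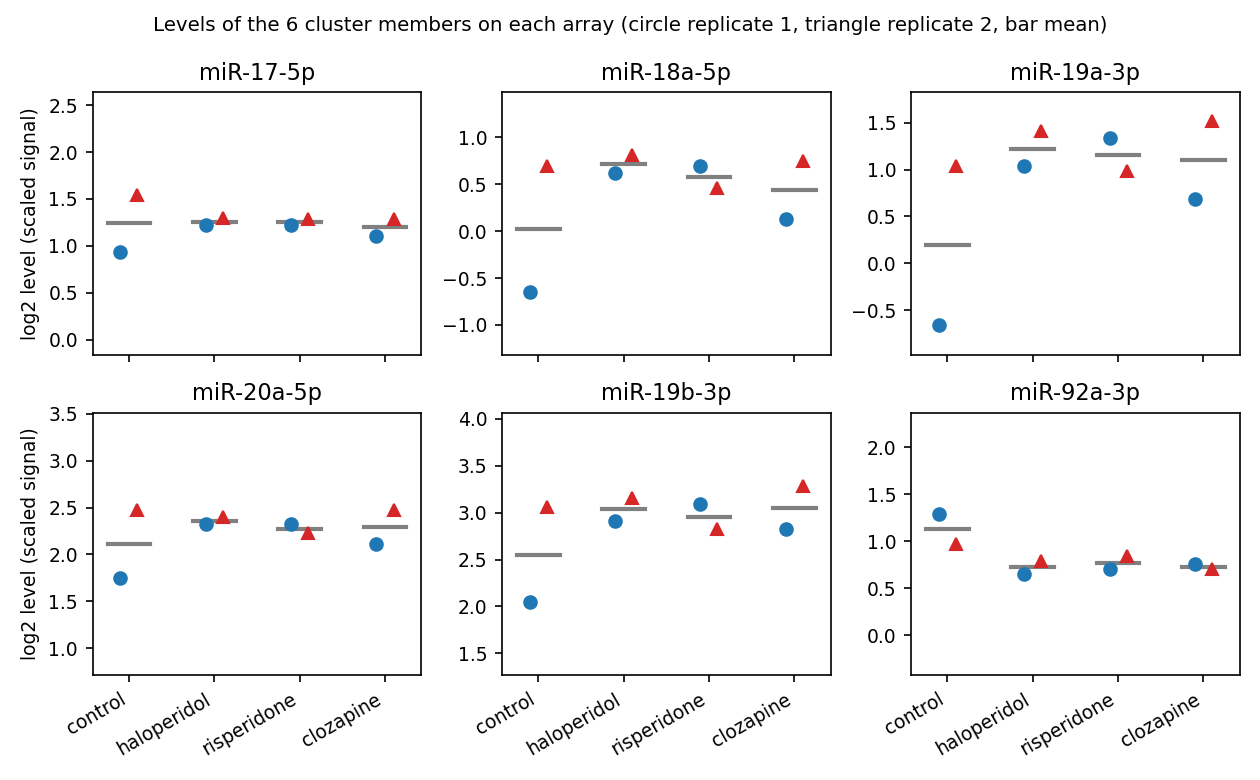
Log2 level (signal over the array's 75th percentile, vertical axes of equal height but different offset) of each member in the 4 groups; circles are replicate 1, triangles replicate 2 and bars the mean of 2. For 5 members the lowest point is control replicate 1, while for miR-92a-3p both control points lie above the 6 drug points.

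No member passed the test (Benjamini-Hochberg adjusted limma p under 0.05) in any of the 3 comparisons of a drug with control, in their mean, between drugs or among the 4 groups. Neither did any other tested miRNA, so that 0% of the 243 were called in each comparison. An unadjusted p under 0.05 was reached by 16, 21 and 36 of the 243 with haloperidol, risperidone and clozapine, and by 37 for the mean of the 3 drugs. The 2 arrays of a group limit the precision, and an exact permutation of 2 against 2 arrays cannot give a two-sided p below 0.333. For the mean of the 3 drugs, the member nearest to the threshold was miR-92a-3p, with a difference of -0.39 (standard error 0.13, unadjusted p 0.0266, adjusted limma p 0.309).

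In direction, 5 of the 6 members lay above control for haloperidol, 5 for risperidone and 4 for clozapine, where 37.9%, 38.3% and 31.7% of all tested miRNAs did so. The median difference of the members was 0.37, 0.28 and 0.30, and that of all tested miRNAs -0.15, -0.15 and -0.17. Relative to the median of all tested miRNAs, 5 members were higher and miR-92a-3p was lower with each drug, also under quantile normalization. The same held without scaling, which is no separate check, since a scale factor moves all miRNAs of an array alike apart from the floor. It did not hold under a model-based (normexp) background, where 1 member was higher with clozapine and 2 with risperidone, though 5 were with haloperidol. There the median of all tested miRNAs rose to 0.76 with clozapine and 0.38 with risperidone. The median of the members was 0.25 and 0.24, close to the 0.30 and 0.28 above. The fitted differences of the members from control were spread out. The highest and the lowest member, miR-19a-3p and miR-92a-3p, were 1.44 apart for haloperidol, 1.33 for risperidone and 1.31 for clozapine, with the same control arrays entering each value. Without control replicate 1 these distances between the highest and the lowest member were 0.47, 0.41 and 0.41.

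**Figure D2:**
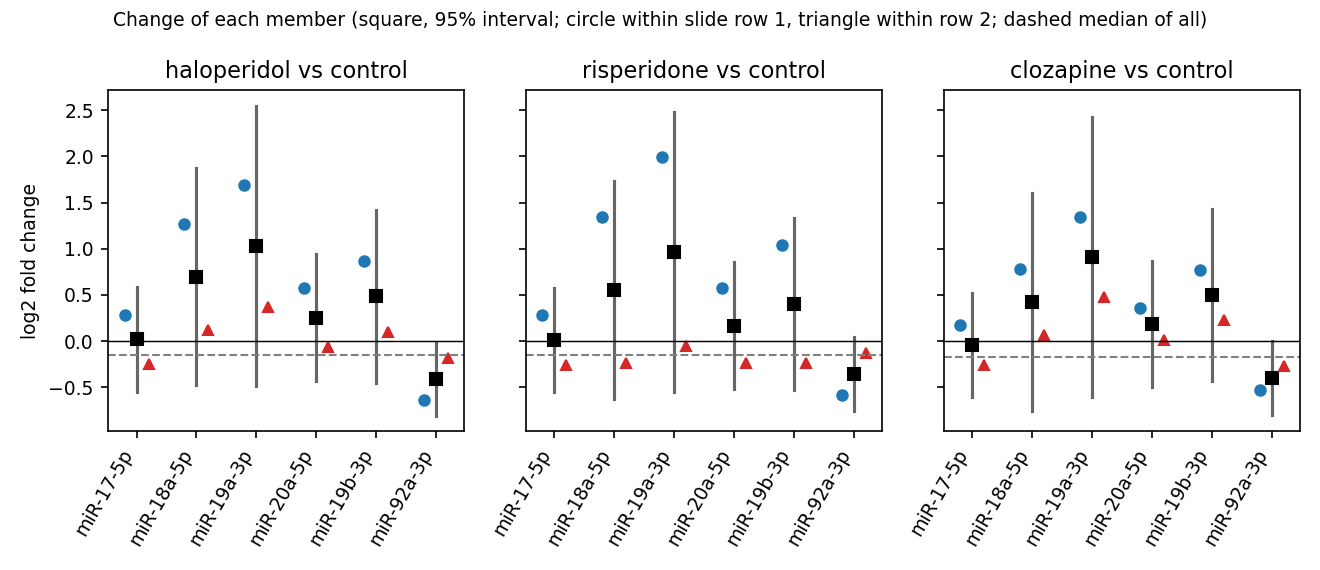
Log2 fold change of each member against control with each drug, with 95% intervals from limma on 2 arrays per group. The intervals of 5 members include 0 with every drug, and those of miR-92a-3p end near 0, at -0.013, 0.039 and -0.0036.

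Without control replicate 1, the differences of 5 members from control were smaller or below 0. That array was the lowest of the 8 arrays for miR-17-5p, miR-18a-5p, miR-19a-3p, miR-20a-5p and miR-19b-3p, as it was for 28% of the tested miRNAs. From control replicate 1 to control replicate 2 the level was 0.61 higher for miR-17-5p, 0.72 for miR-20a-5p, 1.01 for miR-19b-3p, 1.34 for miR-18a-5p and 1.70 for miR-19a-3p, and -0.32 for miR-92a-3p. The median of this gap was 0.87 over the members and -0.012 over all tested miRNAs, of which 47.3% were higher on control replicate 2. In a fit without it, the mean difference of the 3 drugs from control was 0.12 for miR-19a-3p in place of 0.97. In the same fit it was -0.11 in place of 0.56 for miR-18a-5p and -0.046 in place of 0.46 for miR-19b-3p, and for miR-20a-5p and miR-17-5p it was -0.16 and -0.31 in place of 0.20 and -0.0045. With it as the only control array, the difference of miR-19a-3p was 1.82, the lone control being assumed to vary like the other groups. The value of miR-92a-3p was -0.23 without control replicate 1 and -0.55 without control replicate 2, against -0.39 with both, and below 0 each time.

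Replicates 1 and 2 of every group sat in separate rows of the slide, so each drug array could be set against the control array of its row. In the first row, which holds control replicate 1, the 3 drugs differed from control by 1.35 to 1.99 for miR-19a-3p, 0.78 to 1.34 for miR-18a-5p, 0.77 to 1.04 for miR-19b-3p, 0.36 to 0.58 for miR-20a-5p and 0.17 to 0.29 for miR-17-5p. In the second row the same differences were -0.055 to 0.47, -0.23 to 0.12, -0.24 to 0.22, -0.24 to 0.0090 and -0.26 to -0.25. The values of miR-92a-3p lay below 0 in both rows with each drug, at -0.64 to -0.53 in the first and -0.27 to -0.13 in the second. In the second row they were -0.18, -0.13 and -0.27 with haloperidol, risperidone and clozapine, against medians of all tested miRNAs of -0.14, -0.26 and -0.25, so that the risperidone value lay above the median. In the first row those medians were -0.16, -0.080 and -0.13. The differences of miR-18a-5p, miR-19a-3p and miR-19b-3p lay above 0 in both rows with haloperidol and with clozapine, as did those of miR-20a-5p with clozapine. With risperidone all 6 members were below 0 in the second row, as was the median of all tested miRNAs (-0.26). There miR-17-5p lay at that median and the other members above it. Each row has 1 array per group, so these values have no test. The second row holds risperidone replicate 2 and clozapine replicate 2, the arrays with the fewest miRNAs detected.

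**Figure D3:**
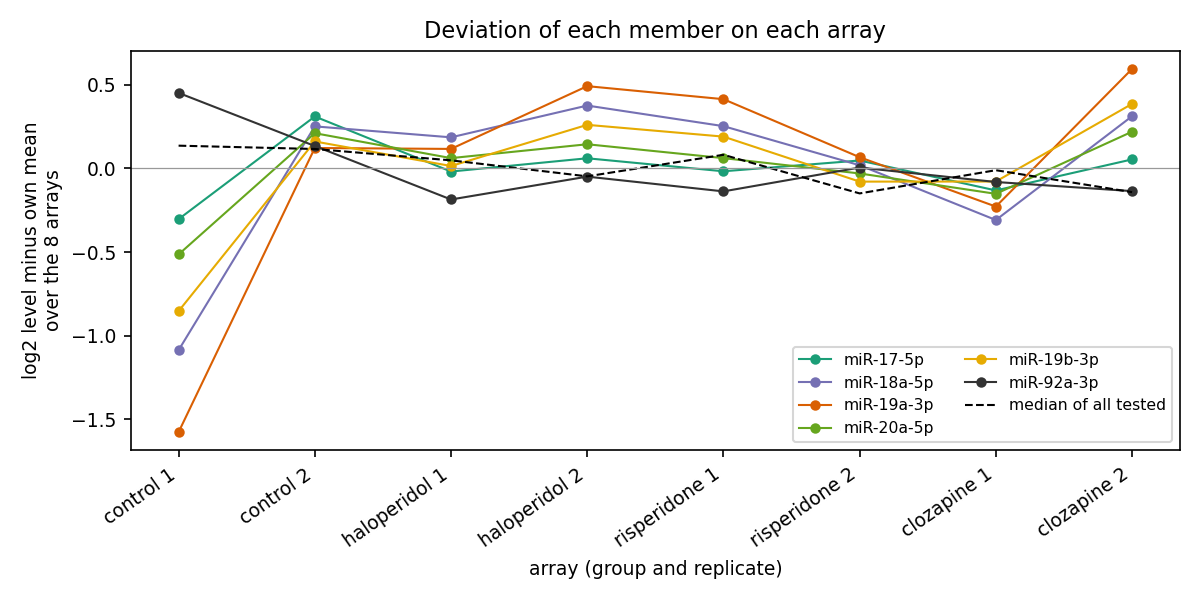
Log2 level of each member minus its own mean over the 8 arrays, by array; lines join the points of a member and the dashed line is the median of the 243 tested miRNAs. On control replicate 1 the members spread over 2.03 and miR-92a-3p lies above the rest, while on the other arrays they spread over 0.146 to 0.731.

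On the 7 other arrays the members kept closer together. Taking each member's deviation from its own mean, the distance from the highest to the lowest member was 2.03 on control replicate 1 and between 0.146 and 0.731 on the others. The whole range of a level over those 7 arrays was 0.32 for miR-92a-3p, 0.37 for miR-20a-5p, 0.44 for miR-17-5p, 0.46 for miR-19b-3p, 0.68 for miR-18a-5p and 0.82 for miR-19a-3p. The ratio of miR-17-5p to miR-20a-5p, the seed pair, ranged over 0.38 on the log2 scale across 8 arrays and over 0.27 across 7. The ratio of miR-19a-3p to miR-92a-3p ranged over 2.76 across 8 arrays and over 0.88 across 7. The miR-19 pair, which differs at 1 base, ranged over 0.95 across 8 arrays and over 0.38 across 7, and the unlike pair miR-18a-5p and miR-19b-3p over 0.40 both times.

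Each member was also tested against the mean of the 6, taken on each array. Against that mean, miR-19a-3p was higher than in control by 0.69, 0.68 and 0.65 with haloperidol, risperidone and clozapine (standard error 0.41). For miR-92a-3p the values were -0.76, -0.65 and -0.66 (standard error 0.45). Over the mean of the 3 drugs they were 0.67 for miR-19a-3p and -0.69 for miR-92a-3p, each with an adjusted limma p of 0.365. Without control replicate 1 the latter values were 0.24 and -0.11. No member passed, and 0% of all tested miRNAs did. The mean of the 6 was subtracted from every tested miRNA, so its own spread between arrays entered all the errors. Since limma draws the error of each miRNA toward a common value, the errors of the members are not their replicate spread alone. For miR-20a-5p the standard error was 0.34, with centred values against the mean of 0.13 and 0.012 on the control arrays. The test therefore cannot decide whether the members differ in their response.

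The likeness of 2 patterns was measured as the root mean square (RMS) difference of their log2 levels after each was centred on its mean, over the 185 miRNAs detected on every array, which leaves 184 others for each member. Over 8 arrays, the miRNA most like miR-20a-5p was miR-20b-5p (RMS 0.026), that most like miR-92a-3p was miR-25-3p (0.052) and that most like miR-18a-5p and miR-19b-3p was miR-106b-5p (0.102 and 0.071). All of these belong to the paralogous clusters. The sequences of miR-20a-5p and miR-20b-5p differ at 2 bases (U1C and U10C, with the base of miR-20a-5p first). The array could confuse them, so their likeness may not be that of 2 separate miRNAs, which was not tested. The nearest to miR-19a-3p was miR-101a-3p (0.055) and the nearest to miR-17-5p was miR-31a-3p (0.095). A member of the cluster itself was among the 3 nearest of no member. The closest fellow member ranked 4th for miR-17-5p (miR-20a-5p, 0.116) and for miR-18a-5p (miR-19b-3p, 0.149), 5th for miR-19b-3p, 7th for miR-19a-3p and miR-20a-5p, and 82nd for miR-92a-3p. Over the 7 arrays without control replicate 1, miR-17-5p became the third nearest of miR-92a-3p (0.080), with miR-342-3p and miR-25-3p before it. The remaining 3-nearest lists over 8 arrays held miR-148b-3p and miR-466b-2-3p for miR-17-5p, miR-101b-3p and miR-20a-3p for miR-18a-5p, miR-301a-3p and miR-24-2-5p for miR-19a-3p, miR-322-5p and miR-31a-3p for miR-20a-5p, miR-27a-3p and miR-130a-3p for miR-19b-3p, and miR-342-3p and let-7e-5p for miR-92a-3p. Among these, miR-20a-3p (0.144 from miR-18a-5p) is the other strand of the Mir20a hairpin, and so a product of the same cluster. All these distances share the 8 arrays and their scaling, and have no test.

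**Figure D4:**
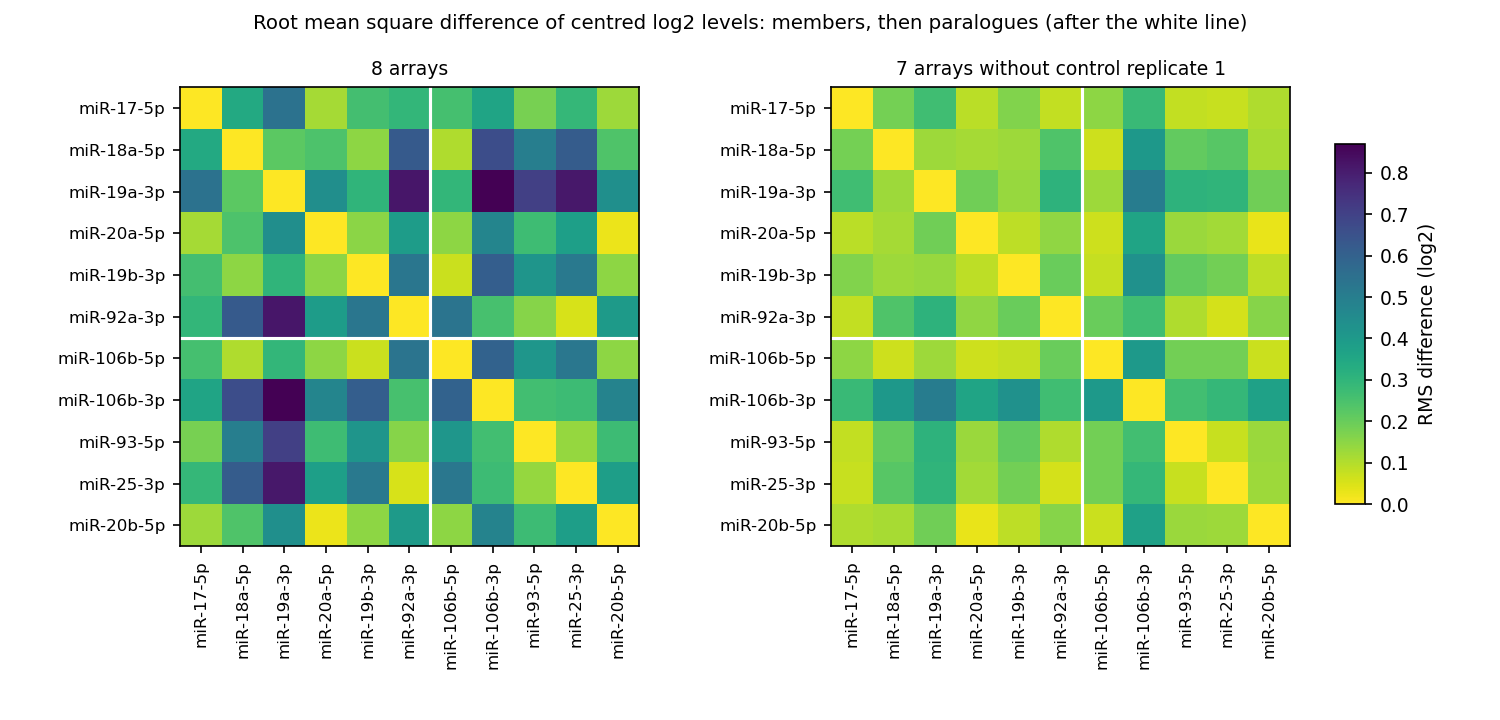
RMS difference of centred log2 levels between the 6 members and 5 detected paralogues, over 8 arrays (left) and over 7 (right); yellow is alike and dark blue unlike. On the left miR-92a-3p is close to miR-25-3p and far from miR-19a-3p (0.819), and on the right that distance falls to 0.307.

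The paralogous clusters, Mir106b-Mir93-Mir25 on chromosome 12 and Mir106a to Mir363 on the X chromosome, arose from copies of this one and carry some of its seeds. Both have the seeds AAAGUGC and AUUGCAC, and the X cluster also has GUGCAAA through Mir19b2. The seed AAGGUGC of miR-18a-5p was found in no listed paralogue. The sequences of the 3 nearest paralogues are shown for comparison with those of the members, with the seed in capitals.
miR-20b-5p: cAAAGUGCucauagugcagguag
miR-106b-5p: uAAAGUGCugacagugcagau
miR-25-3p: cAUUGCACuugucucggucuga

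Of 13 paralogous products and seed relatives, 5 were detected on all 8 arrays and 8 on none. The level of miR-106b-5p was 0.42 and 1.48 on the control arrays and 1.08 to 1.61 on the drug arrays. That of miR-20b-5p was 0.77 and 1.51 in control and 1.15 to 1.50 with the drugs. Both were lowest on control replicate 1, as were 5 members. The level of miR-25-3p was 1.59 and 1.30 in control and 1.02 to 1.07 with the drugs, highest on control replicate 1 and without overlap, as for miR-92a-3p. The difference of miR-25-3p from control over the mean of the 3 drugs was -0.39 (standard error 0.12, adjusted limma p 0.309), the same to 2 decimals as that of miR-92a-3p. The level of miR-93-5p was 1.25 and 1.38 in control and 0.99 to 1.20 with the drugs, likewise without overlap, and its difference was -0.25 (standard error 0.10). The dim partner strand miR-106b-3p did not overlap either, at -3.82 and -3.61 in control and -4.81 to -3.96 with the drugs. It differed by -0.61 (standard error 0.17, adjusted limma p 0.309). All 6 drug arrays lay below both control arrays for 19.8% of all tested miRNAs. The values of miR-106b-5p and miR-20b-5p were 0.45 (0.31) and 0.21 (0.23). No paralogue passed the test. Without control replicate 1 the values were -0.25 for miR-25-3p, -0.31 for miR-93-5p, -0.72 for miR-106b-3p, -0.079 for miR-106b-5p and -0.16 for miR-20b-5p, with the last pair then below 0. Under a normexp background miR-106b-3p lay above 0, at 0.38, where the median of all tested miRNAs was 0.35.

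The other strands of the members' hairpins, which are mostly degraded once the main strand is loaded, gave 7 entries on the array. Of these, miR-20a-3p, miR-19b-1-5p and miR-17-1-3p were detected on all 8 arrays, while miR-17-2-3p (from the X-linked Mir106a), miR-18a-3p, miR-19a-5p and miR-92a-1-5p were detected on none. The level of miR-20a-3p was -3.55 and -2.39 in control and -2.72 to -2.14 with the drugs, so that it shared the low control replicate 1 of its main strand. That of miR-19b-1-5p was -5.72 and -3.95 in control and -4.94 to -3.63 with the drugs. The level of miR-17-1-3p was -6.20 and -4.52 in control, and it was at the floor of -6.22 on 1 risperidone and 1 clozapine array. The control arrays differed by 1.16, 1.77 and 1.68 for these 3 strands. The differences from control over the mean of the drugs were 0.58 (standard error 0.33), 0.53 (0.57) and -0.23 (0.55), and none passed the test. Without control replicate 1 they were 0.0028, -0.36 and -1.07.

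Between drugs the members differed little against a wide error. With risperidone or clozapine against haloperidol and with clozapine against risperidone, the differences of the 6 members lay between -0.28 and 0.10, the adjusted limma p was 1 for all 18 pairs of member and comparison, and 0% of all tested miRNAs were called. The widest interval, that of miR-19a-3p between clozapine and haloperidol, ran from -1.64 to 1.39, which takes in drug differences of more than 2-fold in either direction. The error was pooled over all 4 groups, so the control arrays enter this width too. Their gap for miR-19a-3p was 1.70, beside gaps of 0.38, 0.35 and 0.82 between the haloperidol, risperidone and clozapine replicates. The narrowest, those of miR-92a-3p, ran from -0.35 to 0.45, from -0.39 to 0.41 and from -0.44 to 0.36. The doses differed between drugs.

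Base composition was set beside these values, since the members differ in it. The share of G and C was 34.8% in miR-19a-3p, 39.1% in miR-20a-5p and miR-19b-3p, 43.5% in miR-18a-5p, 47.8% in miR-17-5p and 57.1% in miR-92a-3p. The member poorest in G and C had the widest positive gap between the control arrays and the richest had the only negative one. Over the 214 tested miRNAs with a RefSeq sequence (88.1% of 243) the correlation of this gap with GC content was 0.015, and that of the difference from control was -0.22 for haloperidol, 0.0042 for risperidone and -0.27 for clozapine. These correlations are across miRNAs on shared arrays, which are not independent replicates. After a linear GC trend was taken out of each array, with both control arrays in the fit, the mean difference of the drugs was 0.87 for miR-19a-3p and -0.32 for miR-92a-3p. Each member was read by 2 probes, and the differences that the probes of a member gave were within 0.055 to 0.089 of each other at their widest.

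**Figure D5:**
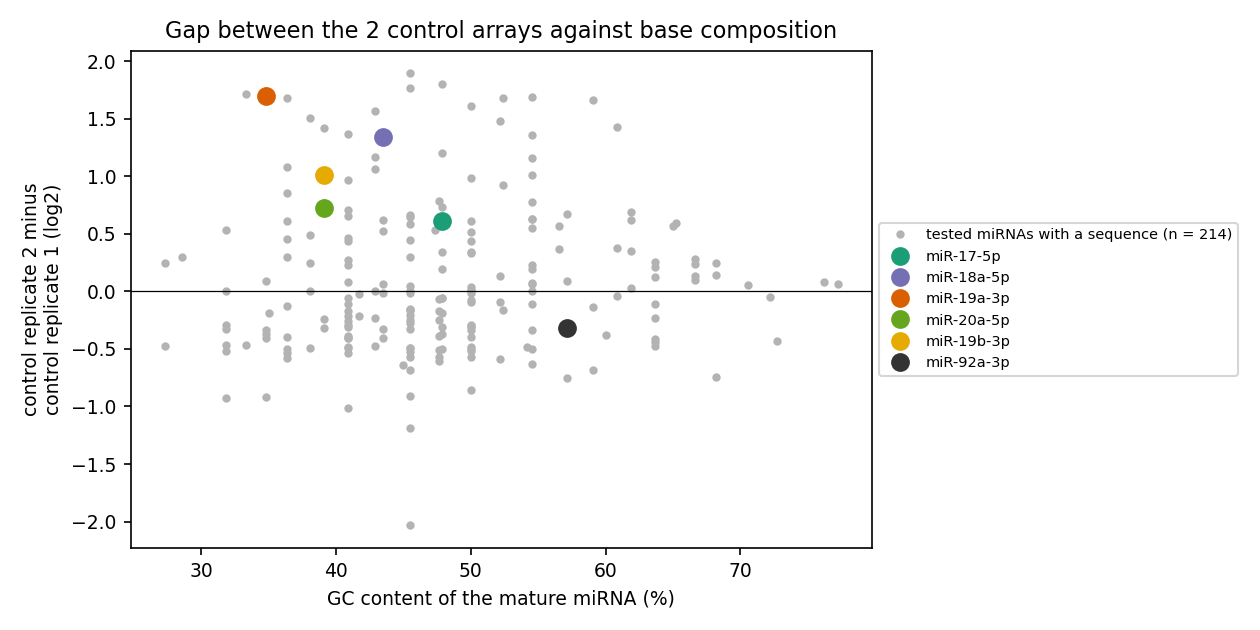
Gap between the control arrays (replicate 2 minus replicate 1, log2) against the GC content of the mature miRNA; grey points are the 214 tested miRNAs with a sequence and coloured points the 6 members. The highest member is miR-19a-3p (34.8%, 1.70) and the lowest miR-92a-3p (57.1%, -0.32), without a steady descent between them. The gap of miR-18a-5p (43.5%, 1.34) lies above those of miR-20a-5p and miR-19b-3p (39.1%, 0.72 and 1.01). The correlation over all points is 0.015.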

How the data were processed

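Per the file headers, the authors scanned 8 single-colour arrays and processed them with Agilent Feature Extraction 10.7.3.1. The deposited signals are linear intensities that had not been scaled across arrays, and the deposited flags (outlier, control, above background, saturated) are of unit other. Each array held 14380 spots of 1730 probes, and none was saturated. From these, background-subtracted signals were averaged per probe without control and outlier spots, summed per miRNA, scaled on each array to the 75th percentile of 291 probes (those with over 50% of spots well above background on all 8 arrays), raised to a floor of 0.0134 where lower (the 5th percentile among detected values) and taken to log2. Testing required detection on the 2 arrays of some group, and 476 miRNAs failed this. limma 3.58.1 in R 4.3.3 fitted the 4 groups (4 residual degrees of freedom) with Benjamini-Hochberg adjustment over all 243. Tested on simulated data for haloperidol against control, the fit recovered 28.1% of 2-fold and 88.5% of 4-fold changes. In each draw 30 of the 243 miRNAs were changed, and false calls averaged 0.46 and 1.42. The noise was drawn independently for each miRNA and array. An array on which many miRNAs deviate together was not simulated, so the rates need not hold for these arrays or for a given member. The members, marker lists and tests were chosen with earlier results of these data known. The text names the 6 members, the other strands of their hairpins, paralogues and seed relatives on fixed lists, with values where detected on all 8 arrays, and the 3 miRNAs nearest to each member. Alternatives varied scaling, background, probe summary, filter, floor, arrays and variance model; the GC trend, the 7-array likeness and the slide rows were added after seeing the data.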

Additional observations from a re-analysis of the deposited data

How the results depend on the processing

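No member was called under any alternative run, in any comparison, and drug-to-drug differences were recomputed only as that count. The replicate number, which is also the slide row, was used as a block (replicate block). The members called stayed at 0 and the adjusted limma p of miR-92a-3p over the mean of the drugs was 0.122. Arrays of 1 number deviated together (correlations 0.16 to 0.71 over 6 pairs of groups). This is a hint of pairing from the data, and the sample labels state none. Leaving out 1 array at a time, members above 0 ranged from 2 to 5 with haloperidol and from 1 to 5 with risperidone, clozapine and the mean of the drugs. The members' spread then ranged from 0.47 to 2.45, 0.41 to 2.33, 0.41 to 2.32 and 0.43 to 2.37; control replicate 1 gave the lowest and control replicate 2 the highest. Members above 0 were 3 with haloperidol and 3 with risperidone under quantile normalization, and 1 with risperidone and 2 with clozapine without scaling. Of 498 member values under alternatives, 40 changed sign, 13 of them without control replicate 1. Leaving out 1 array, with haloperidol miR-17-5p ranged from -0.29 to 0.32, miR-20a-5p from -0.11 to 0.62 and miR-19b-3p from -0.024 to 0.99. With risperidone miR-17-5p ranged from -0.30 to 0.32, miR-18a-5p from -0.12 to 1.22, miR-20a-5p from -0.19 to 0.53 and miR-19b-3p from -0.11 to 0.91. With clozapine miR-17-5p ranged from -0.35 to 0.26, miR-18a-5p from -0.25 to 1.09, miR-20a-5p from -0.18 to 0.55 and miR-19b-3p from -0.0074 to 1.01. Over the mean of the drugs miR-17-5p ranged from -0.31 to 0.30, miR-18a-5p from -0.11 to 1.23, miR-20a-5p from -0.16 to 0.57, miR-19b-3p from -0.046 to 0.97, miR-17-1-3p from -1.07 to 0.62, miR-20a-3p from 0.0028 to 1.17, miR-19b-1-5p from -0.36 to 1.41, miR-106b-5p from -0.079 to 0.98 and miR-20b-5p from -0.16 to 0.57. Under quantile normalization miR-17-5p was -0.020 with haloperidol and -0.020 with risperidone, and miR-20a-5p was -0.044, -0.044 and -0.029 with haloperidol, risperidone and the mean. Without scaling, the median of all tested miRNAs was 0.092, -0.64 and -0.55 with haloperidol, risperidone and clozapine, and risperidone gave -0.61 for miR-17-5p, -0.064 for miR-18a-5p, -0.45 for miR-20a-5p and -0.22 for miR-19b-3p, clozapine gave -0.00996 for miR-18a-5p and -0.24 for miR-20a-5p, and the mean gave -0.060 for miR-20a-5p and -0.0577 for miR-20b-5p. With the deposited gene-level signal miR-17-5p was -0.033 with risperidone and miR-17-1-3p 0.19. Scaled over all probes, miR-92a-3p was 0.23 with risperidone, 0.25 with clozapine and 0.062 for the mean, miR-17-5p was 0.60 with clozapine and 0.45 for the mean, and the mean was 0.020 for miR-17-1-3p, 0.20 for miR-93-5p and 0.0576 for miR-25-3p. Under normexp the mean was 0.50 for miR-17-1-3p and 0.38 for miR-106b-3p, beside a median of all tested miRNAs of 0.35. With the brightest probe miR-17-1-3p was 0.20. The causes were not tested. Low signal limits the other strands. Of those detected, miR-17-1-3p reached the floor of -6.22 on 1 risperidone and 1 clozapine array. The lowest levels of miR-19b-1-5p and miR-20a-3p, at -5.72 and -3.55, lay above it. Having 2 arrays per group limits all members.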
